A study of Homo sapiens with 12 samples.

Results

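ID1, ID2, ID3, ID4, SMAD6, SMAD7, SKIL and BAMBI are genes that many cells switch on when BMP or TGF-beta ligands signal to them. These 8 genes were taken by gene name from the 60504 genes listed for each library, and all 8 were found. Their levels are given as TPM, an estimate of transcript abundance per length in which every library adds up to an equal total. BMP4 and TGFB2, a ligand of each branch of the pathway, were read in the same libraries as a reference.

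The libraries came from T24 cells, a long-used line from a human bladder cancer, and the study asked how gene expression changes with the level of U11, a small nuclear RNA of the minor spliceosome. One comparison had 2 libraries with the U11 knockout label and 2 untreated controls (knockout comparison). The other had 6 libraries with the U11 overexpression label and 2 further untreated controls (overexpression comparison), and the 6 carried the line labels 79, 86 and 87, with 2 libraries each. Per the methods, the knockout cells were a monoclonal line made with CRISPR/Cas9 and 2 guide RNAs, and the overexpression cells were monoclonal lines made by transfection of a U11 plasmid. Any difference can therefore belong to a clone as well as to U11, and these cannot be told apart. The labels and the methods do not explain what 79, 86 and 87 stand for, and nothing says that replicates were separate cultures. The p-values below thus measure the spread between these libraries only, which may be technical.

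Secreted BMP and TGF-beta ligands bind pairs of receptor kinases, which phosphorylate SMAD1, SMAD5 and SMAD9 in the BMP branch and SMAD2 and SMAD3 in the TGF-beta branch. The phosphorylated SMADs join SMAD4, enter the nucleus and act on target genes. ID proteins are classical BMP targets that lack a DNA-binding region and hold back bHLH transcription factors by binding E proteins. SMAD6 and SMAD7 are inhibitory SMADs, SKIL (SnoN) is a co-repressor of SMADs, and BAMBI is a pseudoreceptor without a kinase, so that these members feed back on the pathway that induces them.

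SMAD-binding elements are known from the promoters of several of these genes, and the 2000 bases before each RefSeq start (assembly GRCh38.p14) were searched on both strands for 2 of their spellings. GTCTAGAC, a palindrome of the SMAD-binding element, was found in 1.17% of 35103 windows. GGCGCC followed after 5 bases by GTCT, known as a BMP-responsive element, was found in 0.328%. Of the 8 genes, 3 held a match, and these are shown because SMAD6, SMAD7 and SKIL are among the members called below. The bases are those of GRCh38 (hg38) on the strand of the gene, and capitals mark the letters of the motif. For SMAD6 the stretch is chr15:66702206-66702235 (plus strand, motif 12 bases before the start). For SMAD7 it is chr18:48952200-48952243 (minus strand, motif 1260 bases before 1 of 3 starts). For SKIL it is chr3:170357139-170357189 (plus strand, motif 558 bases before the start).

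SMAD6: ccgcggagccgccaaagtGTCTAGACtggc

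SMAD7: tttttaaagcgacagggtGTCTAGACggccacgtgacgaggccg

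SKIL: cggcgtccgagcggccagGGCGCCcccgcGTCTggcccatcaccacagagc

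No match to either spelling was found before the starts of ID1, ID2, ID3, ID4 or BAMBI or before the other SMAD7 starts. A match is a description of the letters in that window, and no binding was measured.

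In the knockout comparison the controls had 21.4 and 23.8 TPM of U11, whereas 31.6 and 37.4 TPM were found under the knockout label. In these libraries U11 thus went against the label, and every direction given below for the libraries labelled U11 knockout rests on that label. By quantitative PCR, the paper reports less U11 in its knockout line and more in its overexpression line than in wild-type T24. Among the overexpression lines, U11 stood highest under line label 87, at 53.6 and 61.9 TPM, and was at 3.72 and 3.98 TPM under 86 and at 0.183 and 0.412 TPM under 79, against 0.0334 and 0.623 TPM in the controls. The aligned bases behind a library ranged from 9.07 to 15.3 gigabases. The 10 most abundant genes took 45.5% to 49.6% of all TPM in libraries of the knockout comparison but 7.06% to 7.56% in those of the overexpression comparison, so levels were compared within a comparison only. Keratins marked all libraries as epithelial (KRT7 was at 1085 TPM or more), whereas CDH1 and the uroplakins UPK1A, UPK1B, UPK2 and UPK3A were below 0.5 TPM in each of the 12. Of the 11 epithelial and urothelial markers, 5 were tested in the knockout comparison, where KRT19 fell (-0.74) and GATA3 rose (0.75), and 6 in the overexpression comparison, where GATA3 fell under line label 87 (-1.12). EPCAM was not tested under the knockout label and was at 0.148 and 0.0904 TPM there against 0.821 and 1.23 TPM. Their part in the results below was not tested. In such bulk samples, fewer cells with a transcript and less of it per cell cannot be told apart.

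The ligand BMP4 was lower under each U11 label. It reached 1 TPM only in the controls and under line label 86. By the filter given below, it was thus tested only through the groups where it was higher. The controls of the knockout comparison had 2.13 and 2.97 TPM, and the knockout label 0.209 and 0.271 TPM (log2 fold change -1.51, adjusted P = 0.0194, limma). The controls of the overexpression comparison had 13.9 and 16.5 TPM, line label 86 had 2.85 and 4.30 TPM, line label 79 had 0.0617 and 0.0725 TPM and line label 87 had 0.0191 and 0.109 TPM. The log2 fold changes were -1.84 for line label 86 and -3.92 for each of 79 and 87, all with an adjusted P under 0.05 (limma), while the 6 libraries pooled gave -3.23 (adjusted P = 0.249, limma). No value of a line label reached a control, and no difference was detected between line labels 79 and 87 (0.01 on the log2 scale, 95% confidence interval -0.44 to 0.45). TGFB2 went in opposite directions in the 2 comparisons. The controls had 15.1 and 17.2 TPM and the knockout label 31.2 and 36.5 TPM (1.02, adjusted P = 0.0243, limma). The controls of the overexpression comparison had 26.9 and 27.2 TPM and its 6 other libraries 11.2 to 15.2 TPM (-1.01, adjusted P = 0.0202, limma). TGFB2 overlaps the entry TGFB2-OT1 on the same strand, which reached 16.4 TPM, and how reads were split between them was not tested.

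A gene was tested where 2 or more libraries of the comparison had 1 TPM of it or above. It was called, with the thresholds of the study, where its unadjusted P was below 0.05 and its fold 1.5 or larger. Fold changes are those of TPM + 1 on the log2 scale, which understates the change of low genes. Under the knockout label, 6 of the 8 genes were tested, and SMAD7 and SKIL rose while none fell. In that comparison 8.61% of 14356 genes were called up, 3.15% were called down and 11.8% were called in either direction. Of the 8 members, 5 were above both controls in both libraries, 2 were below them and 1 overlapped, while 60.2% of all tested genes did not overlap either. The median of the tested members was 0.41, beside a median of 0.11 over all genes, and median ratio scaling of TPM moved the latter to -0.02. Relative to the median of all genes, SMAD7 was 0.66, SKIL 0.76 and ID1 0.44 higher.

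In the overexpression comparison 7 of the 8 genes were tested, and none was called when the 6 libraries were set against the 2 controls. None had an unadjusted P under 0.05 (limma, smallest 0.0966), and 1.93% of 15768 genes were called. Only SMAD6 did not overlap with the controls (9.87% of all genes did not). The line labels differed among themselves. By an F test across the 3 labels (limma, adjusted P under 0.05), ID1, SMAD6, SMAD7 and BAMBI differed between them, which is 4 of 7 members beside 16% of all genes. Of these, BAMBI passed the filter only through the controls and line label 87, where it was high. Between single line labels, 13.5% (79 and 86), 10.5% (79 and 87) and 6.41% (86 and 87) of all genes had an adjusted P under 0.05.

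**Figure D1:**
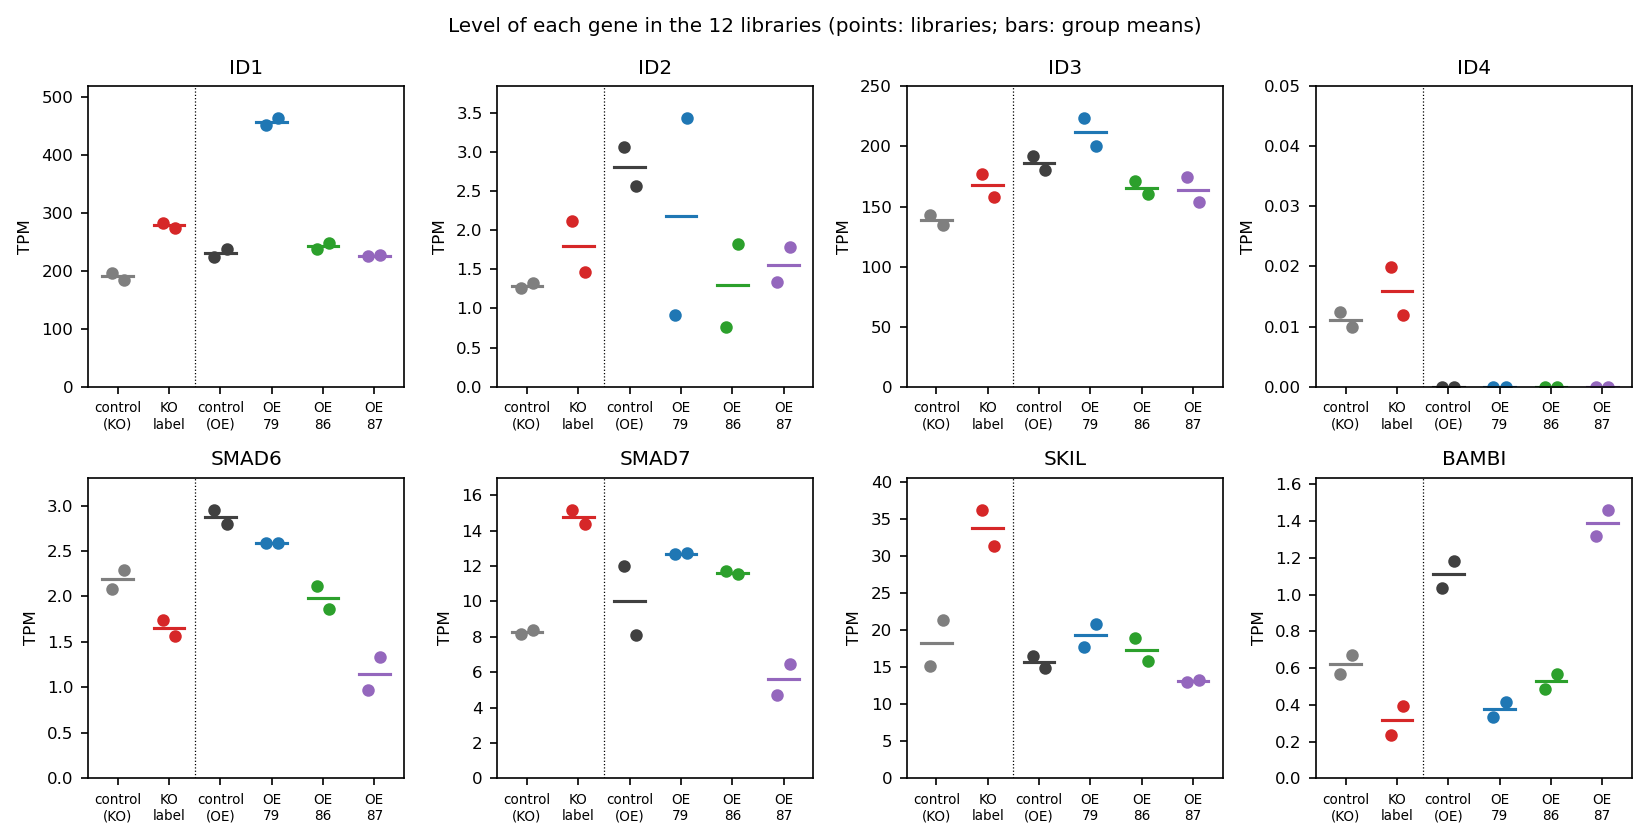
Level in TPM (vertical axis, from 0) of each of the 8 genes in each library, with the knockout comparison left of the dotted line and the overexpression comparison right of it. Points are libraries, bars are means of 2 libraries. ID1 stands at 453 and 464 TPM under line label 79 and between 224 and 249 TPM in the other libraries of that comparison, and SMAD6 and SMAD7 are lowest under line label 87.

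ID1 (ENSG00000125968, chr20:31605283-31606515, plus strand, hg38) was the most abundant of the 8 genes in every library. The controls of the knockout comparison had 197 and 185 TPM of it and the knockout label 284 and 274 TPM, so both labelled libraries were above both controls. The log2 fold change was 0.54 (standard error 0.08, adjusted P = 0.0294, limma). That is 1.46-fold, just under the threshold of 1.5, so ID1 was not called, while without control replicate 1 it was called at 0.59. Relative to the median of all genes, which was itself above 0 in this comparison, and after median ratio scaling (0.39), the difference was smaller and of the same sign.

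Under line label 79, ID1 was above every other library of the overexpression comparison. The controls had 224 and 238 TPM, and line label 79 had 453 and 464 TPM (log2 fold change 0.99, standard error 0.06, adjusted P = 4.72e-04, limma, a fold of 1.98). In this comparison, 2.43% of all genes were called up and 5.52% down. Line label 86 had 237 and 249 TPM (0.07, 95% confidence interval -0.07 to 0.22) and line label 87 had 226 and 227 TPM (-0.03, interval -0.17 to 0.12), neither called and both close to the controls. The rise under line label 79 was 1.01 within the first library code of the sample titles and 0.96 within the second. The difference between line labels held with each library left out in turn (adjusted P = 0.00223 to 0.00791, limma).

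Of 10 markers of leukocytes, endothelium and fibroblasts, 1 was abundant enough to be tested, and it rose under line label 79. CDH5, the cadherin of endothelial cells, was at 32.2 and 34.1 TPM there against 3.08 and 3.43 TPM in the controls. Under the knockout label it was at 0.0293 and 0.0316 TPM against 4.75 and 4.85 TPM. The 10 markers summed to 34.1 to 35.8 TPM under line label 79 and to 4.27 to 4.67 TPM in the controls, and the endothelial markers PECAM1 and VWF were below 0.5 TPM in all libraries. CD14, a marker of monocytes that was not tested, was at 0.869 and 1.18 TPM under line label 79 against 0.43 and 0.57 TPM. It was at 0.907 and 0.830 TPM under line label 86 and at 0.222 and 0.362 TPM under 87. The leukocyte markers CD3E and PTPRC, not tested either, followed the library code, controls included. CD3E was at 0.0516 TPM or less in the first code and 0.502 to 0.915 TPM in the second. PTPRC was at 0.0132 TPM or less and 0.265 to 0.496 TPM. Under the knockout label the 10 markers summed to 0.442 to 0.644 TPM, against 5.24 to 5.67 TPM in its controls. The part of these markers in the values of ID1 was not tested.

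ID3 (ENSG00000117318, chr1:23557918-23559794, minus strand, hg38), which BMP induces together with ID1 in many cells, had smaller differences. The controls had 143 and 135 TPM and the knockout label 177 and 158 TPM, again without overlap. The log2 fold change of 0.27 had an adjusted P = 0.143 (limma), and at 1.21-fold it was not called. The controls of the overexpression comparison had 192 and 180.5 TPM, line label 79 had 224 and 200 TPM, line label 86 had 171 and 160 TPM and line label 87 had 174 and 153 TPM. Line label 79 stood above the controls and the others below, by 0.18, -0.17 and -0.19 on the log2 scale, none called. The F test between line labels gave an adjusted P = 0.0577 (limma), and with the library code as a replicate block it was 0.0107, which passes the threshold. ID1 and ID3 together held 99.3% to 99.9% of the summed TPM of the 4 ID genes in each library.

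ID2 (chr2:8678845-8684453, plus strand, hg38) was near the limit of the filter. Under the knockout label it had 2.12 and 1.47 TPM against 1.27 and 1.32 TPM (log2 fold change 0.28, adjusted P = 0.313, limma). The controls of the overexpression comparison had 3.06 and 2.56 TPM, and ID2 was at 0.921 and 3.43 TPM under line label 79, 0.769 and 1.82 TPM under 86, and 1.34 and 1.78 TPM under 87. Under each line label the library of the first library code was the lower one, whereas among the controls it was the higher one. The pooled log2 fold change was -0.58 (adjusted P = 0.898, limma), and without line 79 replicate 3 it was -0.73, which was called. Under line label 86 it was -0.77 and was called without line 79 replicate 1 or replicate 3, where only the estimate of the spread changed. Under line label 79 it was -0.38, and without replicate 3 it was called at -0.985. The values of ID2 within the library codes were -1.02 and -0.13 for all lines against the control. ID4 (chr6:19837386-19840684, plus strand, hg38) was below 0.05 TPM in the 4 libraries of the knockout comparison and was listed at 0 in all 8 of the other, so it was not tested.

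SMAD6 (ENSG00000137834, chr15:66702228-66782848, plus strand, hg38), the inhibitory SMAD that acts mainly on the BMP branch, was low in all libraries. It overlaps the entry RP11-321F6.2 on the same strand, which was at 0.163 TPM or less. The controls had 2.08 and 2.29 TPM and the knockout label 1.74 and 1.57 TPM, without overlap, and the log2 fold change of -0.26 did not pass the test (adjusted P = 0.234, limma). The overexpression comparison had controls with 2.95 and 2.80 TPM, line label 79 had 2.58 and 2.59 TPM, line label 86 had 2.12 and 1.86 TPM and line label 87 had 0.970 and 1.33 TPM. Each of the 6 overexpression libraries was below both controls, and the line labels did not overlap with each other. Under line label 87, SMAD6 fell by 0.85 on the log2 scale (standard error 0.13, adjusted P = 0.0270, limma), where 3.05% of all genes were called down. It was lower than under line label 79 by 0.74 (adjusted P = 0.0190, limma). On FPKM in place of TPM the fold change was -0.55, under the threshold of 1.5-fold.

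The fall of SMAD6 under line label 87 was -1.005 within the first library code and -0.70 within the second. Under line label 86 it was -0.38 (adjusted P = 0.3001, limma), too small a fold to be called. The F test between line labels gave an adjusted P = 0.0287 (limma), and with any 1 of the 8 libraries left out the adjusted P was 0.0516 to 0.114 (limma), above the threshold each time. Under line label 79, U11 was below 1 TPM, as in the controls, so it could hardly be told from theirs. A fit without line label 79 was added after seeing the data. In it the pooled fold change of SMAD6 was -0.62 and it was called, as was ID2 at -0.67. The share of all genes called in that fit is not given.

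SMAD7 (ENSG00000101665, chr18:48919853-48950711, minus strand, hg38), which blocks receptors of both branches, rose under the knockout label and fell under line label 87. The controls had 8.13 and 8.39 TPM and the knockout label 15.2 and 14.4 TPM (log2 fold change 0.77, standard error 0.11, adjusted P = 0.0290, limma). It was the only member that rose in this comparison with an adjusted P under 0.05 and 1.5-fold (6.85% of all genes passed both thresholds, up or down). Against all 4 untreated libraries the fold change was 0.65 and no longer passed the test. That fit mixes libraries of the 2 comparisons, which correlated at 0.859 to 0.877 across genes, against 0.987 to 0.988 within a group. It therefore cannot tell whether the rise of SMAD7 holds.

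Among the overexpression libraries and their controls, SMAD7 was at 8.11 and 11.99 TPM in the controls, which differed more from each other than the libraries of any line label did. Line label 79 had 12.7 TPM in both libraries, line label 86 had 11.7 and 11.5 TPM, and line label 87 had 4.73 and 6.48 TPM. Line label 87 lay below both controls, line label 79 above both, and line label 86 between them. SMAD7 fell by 0.73 under line label 87 (standard error 0.19, adjusted P = 0.112, limma). This rests on the libraries chosen, since without line 87 replicate 1 it was -0.54 and without control replicate 3 it was -0.48, both under 1.5-fold. Against the control of the same library code it was -1.18 in the first and -0.28 in the second. Without control replicate 3, SMAD7 was called up under line label 79, at 0.59.

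The size of the difference of SMAD7 between the line labels does not involve the controls. Its interval and P do, since the controls share in the estimate of the spread. Line label 79 was above line label 87 by 1.07 (95% confidence interval 0.60 to 1.53, adjusted P = 0.0193, limma), and line label 86 was above line label 87 by 0.95 (adjusted P = 0.0403, limma). The F test gave an adjusted P = 0.0222 (limma). It was no longer under 0.05 without either library of line label 79 (0.0729 and 0.0712) or 86 (0.0613 and 0.0588) or without line 87 replicate 1 (0.106), and it stayed under 0.05 without line 87 replicate 3 or either control.

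SKIL (ENSG00000136603, chr3:170357678-170396835, plus strand, hg38) rose under the knockout label. The controls had 15.1 and 21.4 TPM, and the labelled libraries had 36.3 and 31.4 TPM. Both were above both controls (log2 fold change 0.87, standard error 0.19, adjusted P = 0.0633, limma), so the call holds at the unadjusted threshold and not after adjustment. The overexpression comparison had controls with 16.6 and 14.9 TPM, line label 79 had 17.8 and 20.8 TPM, line label 86 had 18.9 and 15.9 TPM and line label 87 had 13.1 and 13.3 TPM. Line label 79 was highest and 87 lowest, without any of them being called against the controls. Line label 79 was above line label 87 by 0.51 (95% confidence interval 0.22 to 0.80, adjusted P = 0.0471, limma), which is 1.43-fold. The F test between all 3 gave an adjusted P = 0.0670 (limma).

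BAMBI (ENSG00000095739, chr10:28677342-28682939, plus strand, hg38) ran opposite to SMAD7 between the lines. The controls had 1.04 and 1.18 TPM, and BAMBI was at 0.332 and 0.418 TPM under line label 79, at 0.487 and 0.570 TPM under 86 and at 1.32 and 1.46 TPM under 87. Line labels 79 and 86 were below both controls, and line label 87 was above both. BAMBI reached 1 TPM only in the controls and under line label 87, so it passed the filter only through the groups where it was high. Under line label 79 it fell by 0.62 on the log2 scale (standard error 0.14, adjusted P = 0.0427, limma), and without line 79 replicate 1 or control replicate 4 the fold change was -0.57, under 1.5-fold. Under line label 86 it was -0.47 (adjusted P = 0.215, limma), not called, and with a pseudocount of 0.1 it was -0.95 and was called.

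Line label 79 was below line label 87 in BAMBI by 0.80 (95% confidence interval of the log2 difference -1.14 to -0.46, adjusted P = 0.0170, limma). The F test gave an adjusted P = 0.0220 (limma). It was 0.0541 to 0.114 with any 1 of the 6 overexpression libraries left out, and it stayed under 0.05 without either control. Under the knockout label BAMBI was at 0.238 and 0.392 TPM against 0.567 and 0.673 TPM in the controls, without overlap, and it was too low to be tested.

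**Figure D2:**
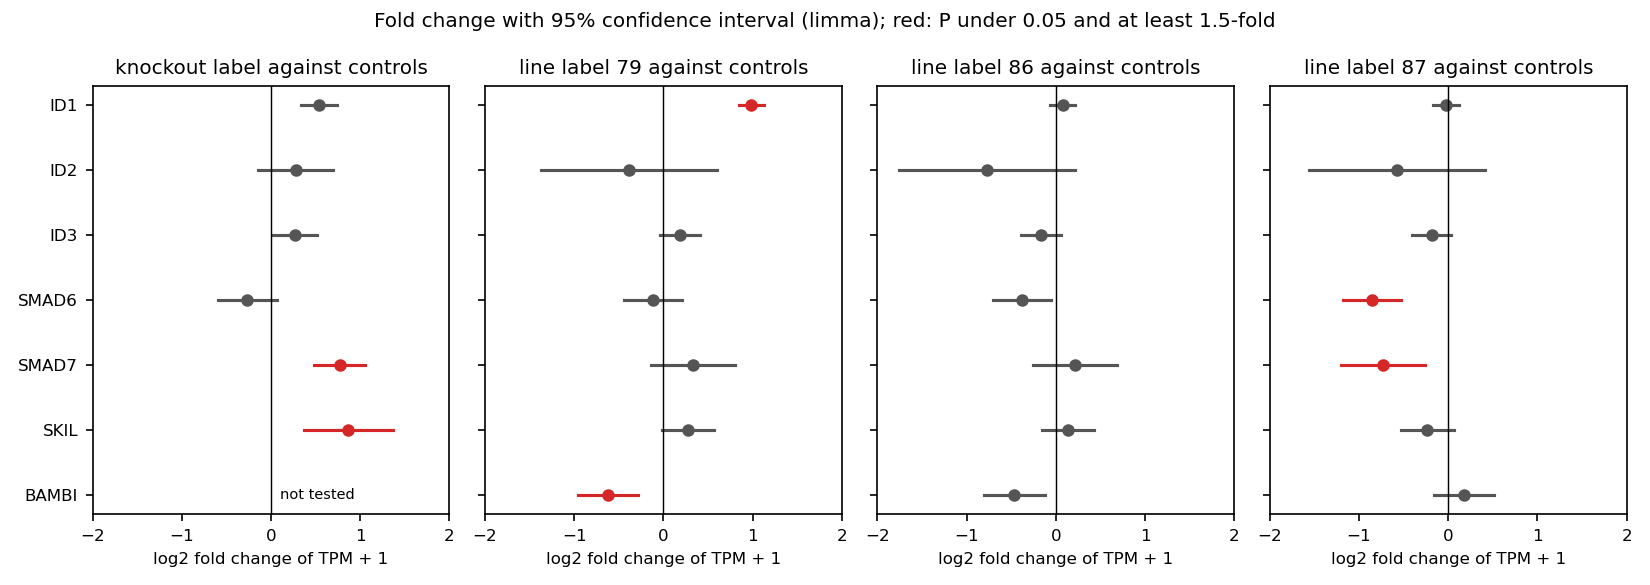
Log2 fold change of TPM + 1 against the controls (horizontal axis) for the 7 genes tested in the overexpression comparison, with 95% confidence intervals from limma. Red marks a P under 0.05 with at least 1.5-fold. SMAD7 and SKIL are red under the knockout label, ID1 (0.99) and BAMBI (-0.62) under line label 79, SMAD6 (-0.85) and SMAD7 (-0.73) under line label 87, and none under line label 86.

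Counted by line label against the controls, 2 of 7 members were called under line label 79 (7.95% of all genes in either direction), none under line label 86 (3.6%, with BAMBI and SMAD6 at an unadjusted P under 0.05) and 2 under line label 87 (5.13%). After adjustment, ID1 and BAMBI were still called under line label 79 (5.63% of all genes) and SMAD6 under line label 87 (2.65%). Of the 2 under line label 79, BAMBI had passed the filter only through the controls and line label 87, where it was high. Of the 8 genes, 6 did not overlap with the controls under line label 79, 4 under 86 and 6 under 87, while 52.8%, 43.4% and 48.2% of all genes did not.

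The levels of BMP4 and of the members were set side by side in the same libraries. BMP4 was near its lowest under both line labels 79 and 87, where ID1 was 2.02-fold higher in TPM + 1 under 79 (log2 difference 1.01, 95% confidence interval 0.87 to 1.16, adjusted P = 4.06e-04, limma), and SMAD6 and SMAD7 were also higher there. BAMBI was lower under 79 than under 87 (-0.80). The ligand BMP6 was at 3.59 and 4.59 TPM under 79 and at 1.02 to 1.29 TPM under 86 and 87, and its part was not tested. BMP4 was higher under line label 86 than under 79 by 2.08, while ID1 was lower by 0.91 (adjusted P = 6.49e-04, limma). Over the 8 libraries of the overexpression comparison, Pearson's r of log2(TPM + 1) between a member and BMP4 ranged from -0.50 (ID1) to 0.55 (SMAD6), with 0.36 for ID2, 0.26 for SMAD7, 0.18 for BAMBI, -0.09 for ID3 and -0.005 for SKIL. With TGFB2 it ranged from -0.15 (ID1) to 0.675 (ID2), with 0.64 for SMAD6, 0.35 for BAMBI, 0.28 for ID3, 0.12 for SMAD7 and -0.04 for SKIL. It was 0.88 between SMAD7 and SKIL, -0.83 between SMAD7 and BAMBI and 0.76 between ID1 and ID3. Libraries of 1 line share their cells, and so these 8 points are not independent.

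**Figure D3:**
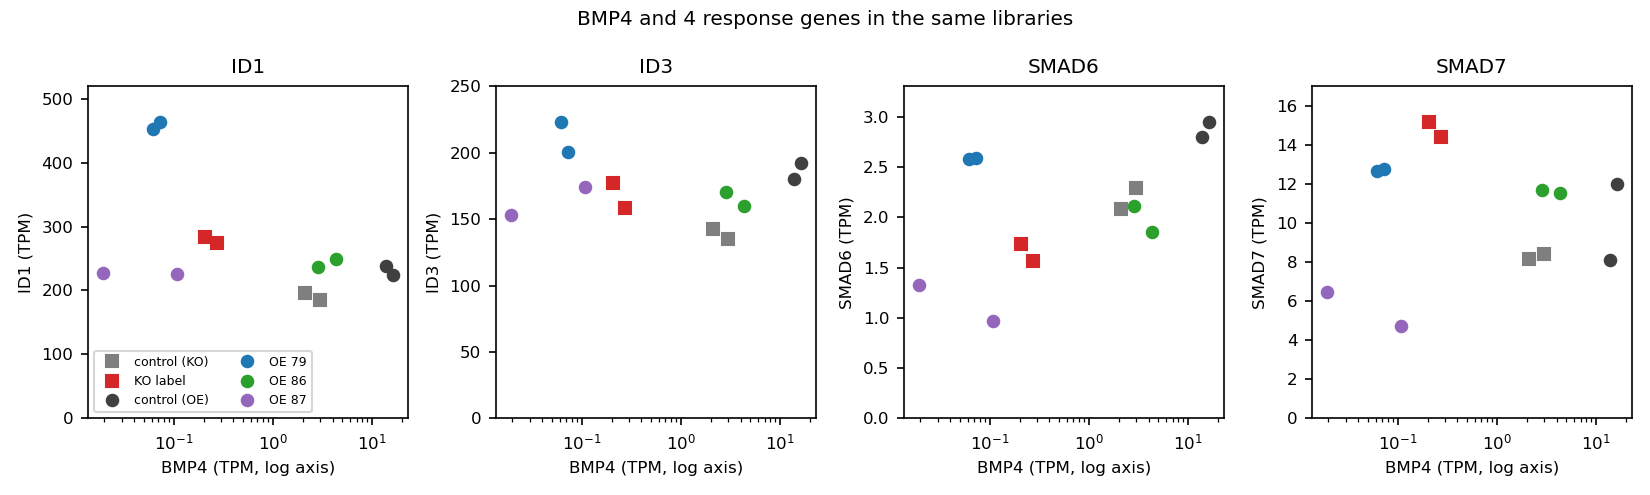
BMP4 (horizontal axis, TPM on a log axis) against ID1, ID3, SMAD6 and SMAD7 (vertical axes, TPM from 0) in each library. Squares are the knockout comparison, circles the overexpression comparison. Line labels 79 (blue) and 87 (purple) lie at the lowest values of BMP4, with 453 and 464 TPM of ID1 under 79 and 226 and 227 TPM under 87.

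The genes closest to a member in pattern were taken as the 5 highest Pearson correlations of log2(TPM + 1) over these 8 libraries, among 11163 genes with a mean of at least 5 TPM. For ID1 they were RCC2 (0.99), SOWAHC, TOMM20, CDH5 and HBEGF (0.98 each). For ID3 they were MRPS26 (0.99), IL27RA, KLHL17, SBNO2 and TCF3 (0.96 to 0.97), the last of which encodes E proteins that ID proteins bind. For SMAD7 they were ITGAV (0.99), an integrin subunit that takes part in the activation of latent TGF-beta, and NUS1, ZBED4, SNRNP200 and SLC5A3 (0.97 to 0.98).

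Of 13 tested genes that are also known to respond to the pathway, 7 rose and none fell under the knockout label (8.61% and 3.15% of all genes), 6 of them with an adjusted P under 0.05 (limma). The median was 0.63, and 6 were not called, among them MSX1 at -0.15. TNC, 1 of the 7, was at 4.21 and 2.58 TPM under the label against 0.638 and 0.808 TPM. It passed the filter only through the labelled libraries, where it was high. ATOH8 (0.413 and 0.439 against 0.124 and 0.123 TPM under the label) and HEY1 (0.717 and 0.763 against 0.550 and 0.396 TPM) were too low to be tested. CDKN2B (0.63) was no longer called without knockout replicate 1 (0.45) or control replicate 1 (0.56). TGFBI, a matrix protein named for its induction by TGF-beta, rose by 2.66, the matricellular CTGF by 1.66 and the transcription factor BHLHE40 by 1.56. SMAD7 and SKIL, which TGF-beta also induces, rose in the same comparison as these genes and TGFB2, and whether they moved through the pathway was not tested.

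Between the overexpression lines, the same response genes differed as well, 8 of 16 by the F test (adjusted P under 0.05, limma), beside 16% of all genes. Under line label 79, 4 rose and none fell (2.43% and 5.52% of all genes). They were TGFBI (2.20), SNAI1 (1.53), a transcription factor of epithelial-mesenchymal transition, BHLHE40 (1.11) and CTGF (0.73). Under line label 86 only TNC fell (-1.23), where 3.6% of all genes were called in either direction. Under line label 87 (2.08% of all genes up and 3.05% down), CDKN1A rose (0.66). There TNC, a matrix glycoprotein listed at 0 in 1 library, fell by 3.68, TGFBI by 1.38 and MSX2, a homeobox gene downstream of BMP, by 0.98. MSX2 was at 0 and 0.0937 TPM there. It passed the filter only through control replicate 3 and line label 86, where it was high. TGFBI was at 235 and 238 TPM under line label 79 and at 18.1 and 19.4 TPM under 87, against 49.0 and 52.1 TPM in the controls. With all 6 libraries pooled, 1 of the 16 was called, BHLHE40 (0.66, adjusted P = 0.654, limma), and it was not called without either library of line label 79 (0.56 and 0.58) or either control (0.62 and 0.70). CDKN1A under line label 87 was not called without control replicate 4 (0.56).

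**Figure D4:**
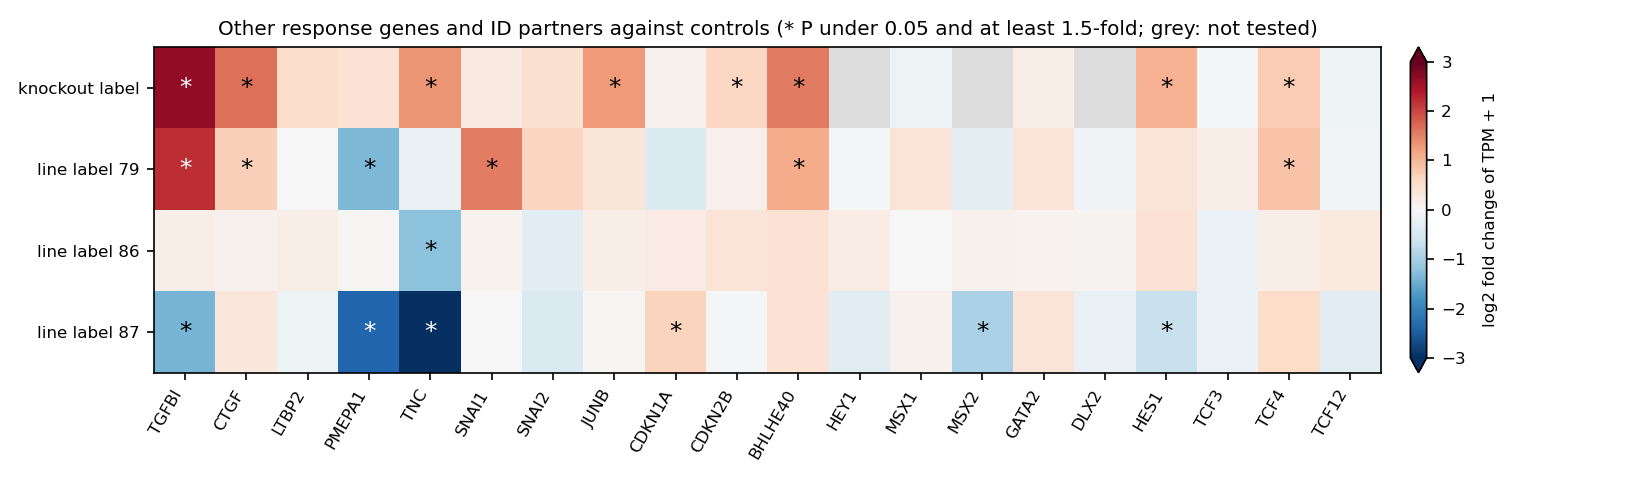
Log2 fold change of TPM + 1 (color, red higher and blue lower than the controls, limited to 3) of other response genes and of the ID partners TCF3, TCF4, TCF12 and HES1, by label. Stars mark a P under 0.05 with at least 1.5-fold in limma, and grey marks genes that were not tested. TGFBI is red under the knockout label (2.66) and line label 79 (2.20) and blue under line label 87 (-1.38).

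Of the repressors and ubiquitin ligases that restrain SMADs beside the members, 9 were tested. TGIF2, a co-repressor, fell under the knockout label (-0.67). PMEPA1, a TGF-beta target that sequesters SMAD2 and SMAD3, fell under line label 79 (-1.34) and line label 87 (-2.38), so it did not share the direction of ID1 under 79. None of these 9 was called under line label 86 or with all lines pooled.

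Upstream of the members, 12 receptors and co-receptors were tested, and none was called under the knockout label or line labels 79 and 87. BMPR1B was called under line label 86 (0.69, adjusted P = 0.189, limma), but not without line 86 replicate 3 (0.43). Among 7 signaling SMADs and partners, SMAD3 fell under the knockout label (-0.60, adjusted P = 0.0631, limma) and none was called under the line labels. SMAD3 was not called without knockout replicate 2 (-0.47) or control replicate 2 (-0.54). Among 9 extracellular antagonists, FSTL3 (2.26), TWSG1 (0.86), CHRDL1 (0.79) and LTBP1 (0.60) rose and FST (-0.97) and NOG (-0.77) fell under the knockout label, where TWSG1, FST and NOG had an adjusted P under 0.05 (limma). FSTL3 was at 18.9 and 68.3 TPM in the controls and 187 and 166 TPM under the label. Its log2 fold change was 1.36 without control replicate 1, and it was not called without either labelled library (2.17 and 2.34). CHRDL1 was not called without control replicate 1 (0.51) or either labelled library (0.74 and 0.83), nor LTBP1 without knockout replicate 1 (0.49) or control replicate 2 (0.53). FST, which traps activins and some BMPs, rose under line labels 79 (0.80), 86 (0.69) and 87 (1.31). BMPER fell (-0.88) and LTBP1 rose (0.97) under line label 79. With all lines pooled FST (0.93) and LTBP1 (0.61) were called, the latter not without either library of line label 79 (0.53 and 0.54) or control replicate 3 (0.48).

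Of the other ligands, BMP6 rose under line label 79 (1.25), where it was at 3.59 and 4.59 TPM against 0.987 and 1.28 TPM in the controls. INHBB, a subunit of activin B, fell under the knockout label (-1.83) and rose under line label 87 (1.24). Under the knockout label it was at 0.112 and 0.0957 TPM against 2.82 and 3.03 TPM. In that comparison it passed the filter only through the controls, where it was high. Among 4 bHLH partners of the ID proteins, TCF4 (0.77) and HES1 (1.03) rose under the knockout label, TCF4 rose under line label 79 (0.86) and HES1 fell under line label 87 (-0.67), and none was called under line label 86.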

How the data were processed

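RNA of 12 T24 libraries was sequenced, and groups, replicate numbers and library codes were taken from the sample labels. The authors trimmed reads with fastp, aligned them to hg38 with Hisat2 and ran Stringtie on each library, and the deposited tables give TPM, FPKM and coverage for each gene. The labels name polyA RNA, but the methods of the study state that ribosomal RNA was depleted. The authors' differential expression used DESeq2 on read counts, which were not analysed here. Coverage, a signal per base that the authors deposited, was used with the deposited FPKM only to derive the aligned bases of each library, and FPKM was an alternative to TPM. TPM keeps no read counts, so counting error was not modelled on its own and is part of the spread between libraries.

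Values were log2(TPM + 1), fitted over all genes with limma 3.58.1 in R 4.3.3 (eBayes with trend), and P was adjusted by Benjamini-Hochberg over all genes tested. The knockout fit held 4 libraries, the pooled overexpression fit 8 in 2 groups, and the line label fit 8 in 4 groups. Intervals are 95%. Named were the 8 genes, BMP4, TGFB2 and U11 (the summed TPM of its 2 entries), and the genes closest in pattern. In each list of pathway genes, mostly up to 4 called genes per comparison were named. One gene of a list is not reported here, while counts over that list include it. Motifs were searched with Python 3.11.15 in the hg38 sequence, which held the same bases as RefSeq's promoter table in all 35116 of its entries. The members and lists were chosen with earlier results of these data known. Alternatives were a pseudocount of 0.1, FPKM, median ratio scaling, quantile normalization, no filter, 1 TPM in every library, no trend, replicate or library code blocks, all 4 untreated libraries, means per line label, adjusted P, and each library left out. Leaving out line label 79, the adjusted P for single line labels and leave-outs for other pathway genes were added after seeing the data. The fits were tested on simulated data.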

Additional observations from a re-analysis of the deposited data

Results flagged for a closer look

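The effect against the same controls differed between the line labels 79, 86 and 87 by the F test of limma for 4 of the 8 genes and for BMP4. The adjusted P of that test was 4.77e-04 for ID1, which was high under line label 79 alone, 0.0287 for SMAD6 and 0.0222 for SMAD7, both lowest under line label 87, and 0.0220 for BAMBI, lowest under line label 79 and highest under 87. It was 0.00173 for BMP4, which was less low under line label 86 than under the other labels. The adjusted P was under 0.05 for 16% of all genes. BAMBI passed the filter only through the controls and line label 87, where it was high. BMP4 passed it only through the controls and line label 86, where it was higher.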

How the results depend on the processing

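The number of members called was 2 in the knockout comparison, 0 in the overexpression comparison, 2, 0 and 2 under line labels 79, 86 and 87, and 4 differed between the line labels. Leaving out 1 library gave 2 to 3 in the knockout comparison, 0 to 1 in the overexpression comparison, 1 to 3, 0 to 1 and 1 to 2 under line labels 79, 86 and 87, and 1 to 3 between the line labels. Where that left 1 library in a group, it was assumed to vary like the other groups. In the knockout comparison the count was 1 with all 4 untreated libraries, which mixes libraries of the 2 comparisons, or with the adjusted P. In the overexpression comparison it was 2 without line label 79. Between the line labels it was 2 without a filter and 2 with 1 TPM in every library, which leaves out SMAD6 and BAMBI. Quantile normalization gave 6, adding ID3 and SKIL. Under line labels 79 and 87 it was 1 each with FPKM and with 1 TPM in every library, under 87 it was 1 with the adjusted P, and under 86 it was 1 with a pseudocount of 0.1. The shares of all genes given above are those of the main fits. Counts under other settings have no such share beside them, so they cannot be set against all genes.

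With a replicate block the counts were 2 in the knockout comparison, 0 in the overexpression comparison, and 2, 0 and 2 under the line labels, and 5 in place of 4 differed between the line labels, ID3 being added. Libraries of the same number or library code deviated together only weakly (correlation 0.02 in the knockout comparison and 0.07 to 0.15 between the overexpression groups), so the block was not the main fit.

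The sign turned for some values that were not called. With all 4 untreated libraries, SMAD7 (0.0546), SKIL (-0.0348) and ID3 (0.153) turned in the overexpression comparison and ID2 (-0.0887) in the knockout comparison. SKIL in the overexpression comparison was -0.0504 without line label 79. With 1 library left out, the overexpression values ranged from -0.318 to 0.194 for SMAD7 and from -0.0158 to 0.134 for SKIL. Against the controls, ID2 ranged from -0.985 to 0.22 under line label 79, SMAD7 from -0.0423 to 0.4695 under line label 86 and ID1 from -0.0676 to 0.0173 under line label 87. No called value turned. The cause was not tested. TPM keeps no read counts, so what depth limits for ID2, SMAD6 and BAMBI, at a few TPM or less, could not be computed.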
